A study of Homo sapiens with 9 samples.

Results

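Of the 57766 genes that the expression table lists for zinc-starved HEK293 cells, 8 are described here: CIB3, PRRG2 and ACSBG1, together with their relatives CIB1, CIB2, PRRG1, PRRG4 and ACSBG2. CIB3, PRRG2 and ACSBG1 were chosen because they averaged under 1 RPKM (reads scaled by transcript length and library size) wherever zinc was present and were high where it had been removed. Their levels in the 3 media are therefore a description and were not tested. The relatives were taken as family controls by symbol. HEK293 Freestyle cells, a suspension line from human embryonic kidney, were held for 36 h in 1 of 3 media, and polyadenylated RNA was sequenced from single ends. The groups were Zn(II)-depleted Freestyle medium (depleted), the depleted medium after Zn(II) was put back (repleted) and untreated Freestyle medium (full), with 3 libraries each that the labels call biological triplicates. Depleted against full medium shows what the depletion step did, depleted against repleted medium isolates the added Zn(II), and repleted against full medium shows what adding Zn(II) back did not restore. Both comparisons of the depleted group use the same 3 depleted libraries.

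The deposited values were log2(RPKM + 1), a scale that understates the change of genes near 0. A test was run for the 15774 genes that reached 1 RPKM in 3 or more libraries, and 7 of the 8 genes passed that filter. CIB3, PRRG2 and ACSBG1 passed it only through the depleted libraries. The depth is not given in the table. The smallest steps between low values of short genes put it at an estimated 16950000 to 23250000 reads per library. Each depth was picked as the one that brought these values nearest to whole reads. At that depth 63.2% to 65.5% of the low values checked were whole within 0.1 read, which is not a separate check of it. MT2A, a metallothionein that binds zinc and is induced by it, averaged 6.46 ± 0.687 RPKM in depleted, 93.5 ± 3.34 in repleted and 191 ± 8.90 in full medium (SD, n = 3 each). It was lower in repleted than in full medium by a log2 change of -1.02 (SE 0.07, limma adjusted p = 0.00114).

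CIB proteins are small calcium-binding proteins with EF hands, named for the binding of CIB1 to the tail of a platelet integrin. CIB2 and CIB3 are known as partners of the TMC channels of inner ear hair cells in the mouse. PRRG proteins cross the membrane once and carry an outer Gla domain, whose glutamates are carboxylated in a reaction that needs vitamin K, and an inner tail with proline-rich motifs that bind WW domains. ACSBG proteins, called bubblegum after the fly gene, join long and very long fatty acids to coenzyme A. ACSBG1 is known from brain, adrenal gland and testis, and ACSBG2 from testis.

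The start-site windows of CIB3, PRRG2 and ACSBG1 are shown with those of CIB2 and PRRG4, expressed relatives, because they differ in CpG sites. The choice of genes did not use these sites directly, but it used a low level in zinc. Genes of low level had fewer sites than expressed genes, as the larger classes below show. Fewer sites than in expressed relatives are therefore a description and were not tested. Each window holds 300 bases, from 250 before to 50 after the start that RefSeq annotates on GRCh38.p14, read 5′ to 3′ on the gene's strand, with each CG in capitals. The expression values rest on an earlier build, and only the gene symbols connect them to these windows. All 8 symbols had at least 1 window.
CIB3: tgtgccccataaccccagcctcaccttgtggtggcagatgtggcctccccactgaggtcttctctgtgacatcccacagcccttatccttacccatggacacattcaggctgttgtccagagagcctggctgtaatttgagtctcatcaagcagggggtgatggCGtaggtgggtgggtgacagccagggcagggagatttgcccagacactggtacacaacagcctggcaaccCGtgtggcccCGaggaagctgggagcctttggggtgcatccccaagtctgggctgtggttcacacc
CIB2: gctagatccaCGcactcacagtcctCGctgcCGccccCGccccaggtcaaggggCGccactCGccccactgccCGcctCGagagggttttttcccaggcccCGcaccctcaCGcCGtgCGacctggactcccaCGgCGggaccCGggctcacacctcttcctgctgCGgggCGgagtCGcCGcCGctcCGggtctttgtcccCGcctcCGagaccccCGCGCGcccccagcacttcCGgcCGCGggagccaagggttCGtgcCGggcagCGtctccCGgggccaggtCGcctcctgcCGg
PRRG2: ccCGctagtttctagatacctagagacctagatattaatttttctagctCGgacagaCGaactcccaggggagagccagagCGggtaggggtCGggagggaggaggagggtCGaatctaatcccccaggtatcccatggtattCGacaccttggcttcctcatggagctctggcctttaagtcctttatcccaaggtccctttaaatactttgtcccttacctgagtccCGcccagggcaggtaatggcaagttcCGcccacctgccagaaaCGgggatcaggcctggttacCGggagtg
PRRG4: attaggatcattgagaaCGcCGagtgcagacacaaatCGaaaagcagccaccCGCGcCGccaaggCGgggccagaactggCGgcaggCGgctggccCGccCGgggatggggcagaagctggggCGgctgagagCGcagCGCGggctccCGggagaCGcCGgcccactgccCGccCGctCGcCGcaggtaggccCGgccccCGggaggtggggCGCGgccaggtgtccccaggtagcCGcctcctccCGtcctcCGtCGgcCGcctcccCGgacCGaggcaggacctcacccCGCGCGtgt
ACSBG1: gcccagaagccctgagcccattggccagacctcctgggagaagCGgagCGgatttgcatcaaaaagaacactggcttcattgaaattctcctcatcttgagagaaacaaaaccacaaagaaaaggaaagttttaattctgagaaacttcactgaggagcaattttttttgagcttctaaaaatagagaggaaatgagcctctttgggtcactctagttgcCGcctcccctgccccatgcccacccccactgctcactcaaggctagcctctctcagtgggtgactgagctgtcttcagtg
CIB3 lies on the minus strand at chr19:16173476-16173775 and ACSBG1 on the minus strand at chr15:78234516-78234815. Each held 3 CpG sites, and 24.5% of all 35116 windows held as few or fewer. PRRG2 lies on the plus strand at chr19:49581066-49581365 and held 11, with 46.9% of windows at or below it. CIB2, on the minus strand at chr15:78131486-78131785, held 35 sites, and PRRG4, on the plus strand at chr11:32829677-32829976, held 36. As few or fewer were found in 87.3% and 88.7% of all windows. The window of PRRG1 held 26 sites, the 3 windows of CIB1 held 31, 36 and 36, and the 2 windows of ACSBG2 held 5 each. The 4 relatives expressed above 1 RPKM therefore had 26 or more sites, whereas the 3 genes near 0 in zinc and ACSBG2, near 0 in all media, had 11 or fewer.

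The same measure is given for larger gene classes as a description. Among 9626 protein-coding genes with at least 5 RPKM in full and repleted medium, 7496 had a window, with a median of 26.5 sites, and 8.11% lay below the median of all windows, which was 14. Among 7340 protein-coding genes under 1 RPKM in all 3 media, 4420 had a window, with a median of 6, and 70.0% lay below. Of the 12 protein-coding genes under 1 RPKM in repleted and full medium that averaged at least 5 RPKM in depleted medium, 9 had a window. Their median was 11, with a range of 3 to 46, and 55.6% lay below. The windows of CIB3 and ACSBG1 were thus at the low end of the genes that shared their expression pattern.

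**Figure D1:**
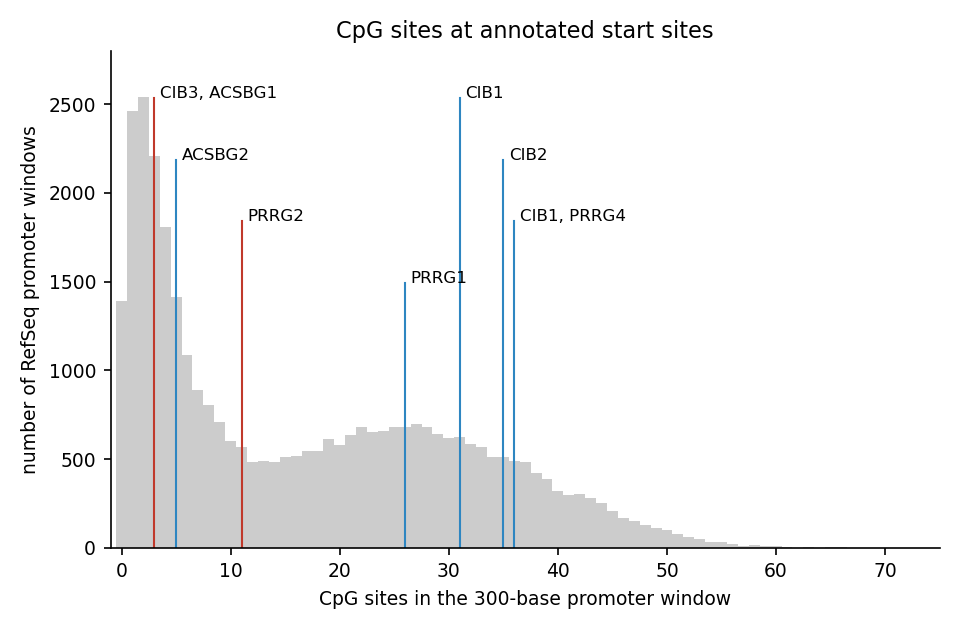
Number of RefSeq promoter windows, on the vertical axis, by their CpG sites in 300 bases, on the horizontal axis, with lines at the windows of CIB3, PRRG2 and ACSBG1 (red) and of their relatives (blue); the height of a line has no meaning. CIB3 and ACSBG1 sit at 3 sites and PRRG2 at 11, whereas all windows of CIB1, CIB2, PRRG1 and PRRG4 hold 26 or more. The windows of ACSBG2 hold 5 each.

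Short motifs were searched on both strands of these windows. TGCACNC, a core of the metal response element bound by the zinc sensor MTF1, matched once in CIB3, as GGGTGCA beginning 15 bases after the start, and once in PRRG4; 12.1% of all windows held it. The related TGCGCNC matched in PRRG4, PRRG1 and a window of CIB1 and was found in 20.0% of all windows. TGATGNAA, a core of the element bound by the stress factor ATF4, matched once in ACSBG1, as TTGCATCA beginning 197 bases before the start, and was found in 3.62% of windows. GGGCGG, the GC box, matched 2 times in PRRG2 and at least once in every window of CIB1, CIB2, PRRG1 and PRRG4, but not in CIB3, ACSBG1 or ACSBG2; 45.0% of all windows held it. TATAAA matched in PRRG1 alone of the 8 genes, against 11.5% of windows. TGACGTCA and TGANTCA matched in none of the 8 and in 1.85% and 7.71% of windows. None of these motifs was shared by the windows of CIB3, PRRG2 and ACSBG1.

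CIB3 (ENSG00000141977) was among the highest members of the near-silent class in depleted medium and at or near 0 elsewhere. It had 19.30, 19.90 and 20.04 RPKM in the depleted libraries, against 0.50, 0 and 0.17 in the repleted and 0, 0 and 0.25 in the full libraries. All 3 depleted libraries were close together and far above the other 6, of which 3 were listed at 0. The means were 19.7 ± 0.393 RPKM in depleted, 0.223 ± 0.254 in repleted and 0.0833 ± 0.144 in full medium (SD, n = 3 each). On the log2 scale the depleted mean was higher by 4.10 than the repleted and by 4.27 than the full mean, and no ratio of RPKM is given because of the libraries at 0. At the listed length and the estimated depths, these levels come to 181.4 to 208.5 reads of CIB3 in a depleted library, against 0 to 4.6 in a repleted and 0 to 2.3 in a full library. The listed length, 531.75 nucleotides, equals the mean of the 4 transcripts listed for it, which run from 354 to 711 nucleotides. In bulk RNA, more cells that express a gene and more RNA per cell cannot be told apart.

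CIB1 (ENSG00000185043), the most widely expressed member of the family, did not pass the test. It had 34.57, 35.71 and 35.56 RPKM in the depleted libraries, against 39.46, 36.79 and 39.02 in the repleted and 38.17, 35.21 and 39.63 in the full libraries. The depleted libraries lay below all 3 repleted ones and overlapped the full ones. The log2 change was -0.12 against repleted medium (SE 0.05, limma adjusted p = 0.0686) and -0.09 against full medium (SE 0.05, limma adjusted p = 0.153). Against full medium the change passed without full replicate 2 (limma adjusted p = 0.042), and against repleted medium without repleted replicate 2 (0.0473), without full replicate 2 (0.0441) and after quantile normalization (0.0355).

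CIB2 (ENSG00000136425) fell in depleted medium. It had 25.11, 27.10 and 26.22 RPKM in the depleted libraries, against 35.51, 37.38 and 36.35 in the repleted and 33.97, 35.98 and 34.52 in the full libraries. The depleted libraries lay below all others, while the repleted and full libraries overlapped. The means were 26.1 ± 0.997 RPKM in depleted, 36.4 ± 0.937 in repleted and 34.8 ± 1.04 in full medium (SD, n = 3 each). The log2 change was -0.46 against repleted medium (SE 0.05, limma adjusted p = 1.66e-05) and -0.40 against full medium (SE 0.05, limma adjusted p = 4.48e-05). CIB4, the remaining member of the family, was listed at 0 in all 9 libraries.

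The CIB family had 3 members above 1 RPKM in depleted medium and 2 in repleted and full medium. Summed over CIB1 to CIB4, it came to 79.0 to 82.7 RPKM in the depleted libraries, against 74.2 to 75.5 in the repleted and 71.2 to 74.4 in the full libraries. CIB3 made up 24.1% to 24.5% of that sum in depleted medium, against 0% to 0.663% in repleted and 0% to 0.336% in full medium. By mean RPKM the order in depleted medium was CIB1, CIB2, CIB3, with no overlap between neighbours. In repleted and full medium CIB1 and CIB2 were the only members above 1 RPKM, and their libraries overlapped.

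PRRG2 (ENSG00000126460), a transmembrane Gla protein, had the highest depleted mean of all genes under 1 RPKM in repleted and full medium. It had 18.47, 22.90 and 19.44 RPKM in the depleted libraries, against 0.94, 0.45 and 0.43 in the repleted and 0.33, 0.60 and 0.54 in the full libraries. Every depleted library was above every other, and no library listed it at 0. The means were 20.3 ± 2.33 RPKM in depleted, 0.607 ± 0.289 in repleted and 0.490 ± 0.142 in full medium (SD, n = 3 each). The depleted mean was 33.4 times the repleted and 41.4 times the full mean in RPKM, and higher by 3.74 and 3.83 on the log2 scale.

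PRRG1 (ENSG00000130962) and PRRG4 (ENSG00000135378), also Gla proteins, were low in all media. PRRG1 had 3.57, 2.91 and 3.31 RPKM in the depleted libraries, against 3.89, 3.78 and 4.63 in the repleted and 4.21, 3.91 and 3.86 in the full libraries. All depleted libraries of PRRG1 lay below the other 6. Its log2 change was -0.26 against repleted medium (SE 0.10, limma adjusted p = 0.0491) and -0.23 against full medium (SE 0.10, limma adjusted p = 0.0724). The first of these calls was lost without depleted replicate 2 (0.157) or 3 (0.0876), repleted replicate 1 (0.0636) or 3 (0.161), or full replicate 1 (0.0634), 2 (0.0671) or 3 (0.0635), where the limma adjusted p is in brackets. It was also lost with no filter (0.104), with the 6 libraries compared alone (0.0868), with the replicate block (0.0597), after median centring (0.104) and after quantile normalization (0.44).

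PRRG4 had 2.35, 2.39 and 2.53 RPKM in the depleted libraries, against 2.23, 2.41 and 1.94 in the repleted and 2.76, 2.64 and 2.50 in the full libraries. The depleted libraries overlapped both other groups. The log2 change was 0.10 against repleted medium (SE 0.10, limma adjusted p = 0.399) and -0.09 against full medium (SE 0.10, limma adjusted p = 0.48). The repleted libraries of PRRG4 lay below all full ones, with a log2 change of -0.19 (SE 0.10, limma adjusted p = 0.703). PRRG3 stayed between 0.03 and 0.06 RPKM in all 9 libraries.

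Summed over PRRG1 to PRRG4, the family came to 24.4 to 28.3 RPKM in the depleted libraries, against 6.70 to 7.12 in the repleted and 6.93 to 7.33 in the full libraries. PRRG2 made up 75.6% to 81.0% of the sum in depleted medium, against 6.12% to 13.2% in repleted and 4.50% to 8.34% in full medium. It was the highest member in depleted medium and the third in the other media, after PRRG1 and PRRG4, with no overlap between neighbours in that order in any medium.

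ACSBG1 (ENSG00000103740) had 9.29, 10.26 and 8.77 RPKM in the depleted libraries, against 0.61, 0.34 and 0.73 in the repleted and 0.88, 0.87 and 0.47 in the full libraries. The depleted libraries were far above the other 6, which overlapped each other. The means were 9.44 ± 0.756 RPKM in depleted, 0.560 ± 0.200 in repleted and 0.740 ± 0.234 in full medium (SD, n = 3 each). The depleted mean was 16.9 times the repleted and 12.8 times the full mean in RPKM, and higher by 2.75 and 2.59 on the log2 scale. The listed length, 1094.24 nucleotides, is short of the longest of its 15 listed transcripts, at 6357 nucleotides, so its RPKM depends on which transcripts were counted.

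ACSBG2 (ENSG00000130377) stayed near 0 and failed the filter. It had 0.02, 0.17 and 0.64 RPKM in the depleted libraries, against 0.25, 0.09 and 0 in the repleted and 0, 0.15 and 0.03 in the full libraries. The groups overlapped, and the highest value came from depleted replicate 3. Exact two-sided permutation tests gave p = 0.6 against repleted and p = 0.3 against full medium, where 3 libraries against 3 allow no p under 0.1. The family came to 9.31 to 10.4 RPKM in depleted, 0.43 to 0.86 in repleted and 0.50 to 1.02 in full medium. ACSBG1 was the main member in every medium, with 93.2% to 99.8% of the sum in depleted, 70.9% to 100% in repleted and 85.3% to 100% in full libraries.

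**Figure D2:**
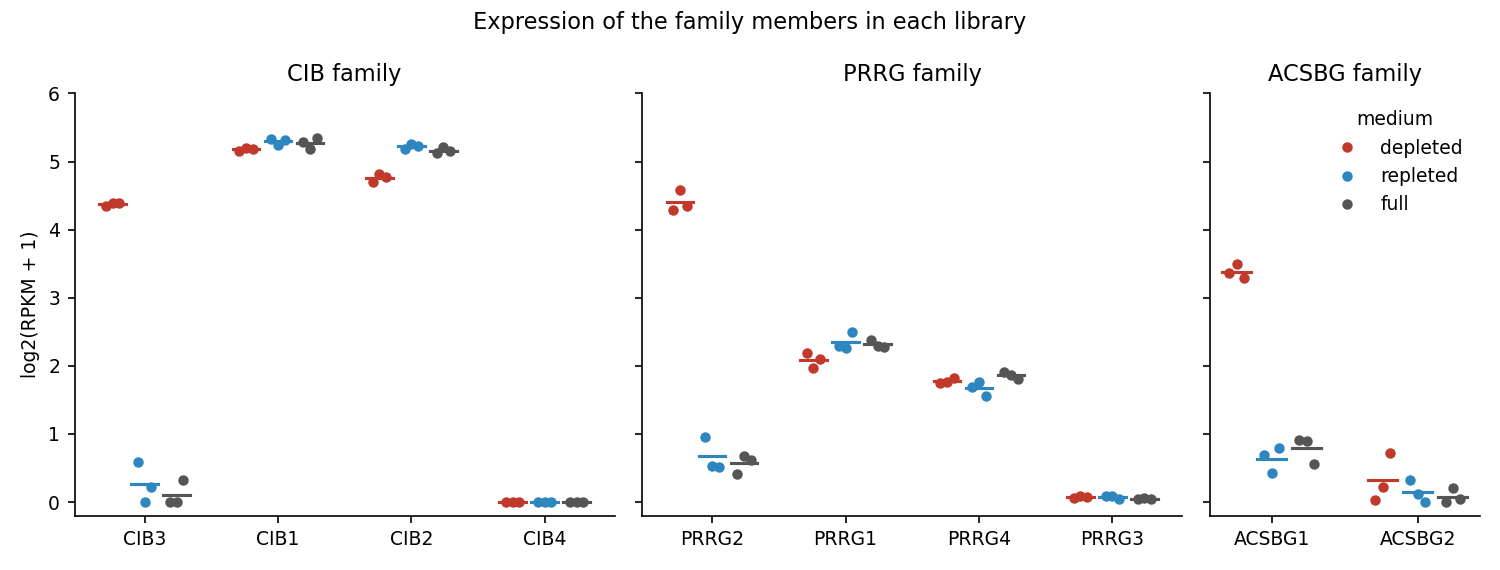
Level of the 8 genes, CIB4 and PRRG3 in each library as log2(RPKM + 1), with the depleted, repleted and full groups from left to right, a point for each library and a bar for the mean of 3. CIB3, PRRG2 and ACSBG1 have 3 depleted points far above the other 6, whereas CIB2 is lower in depleted medium and ACSBG2 stays near 0 in all groups.

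**Figure D3:**
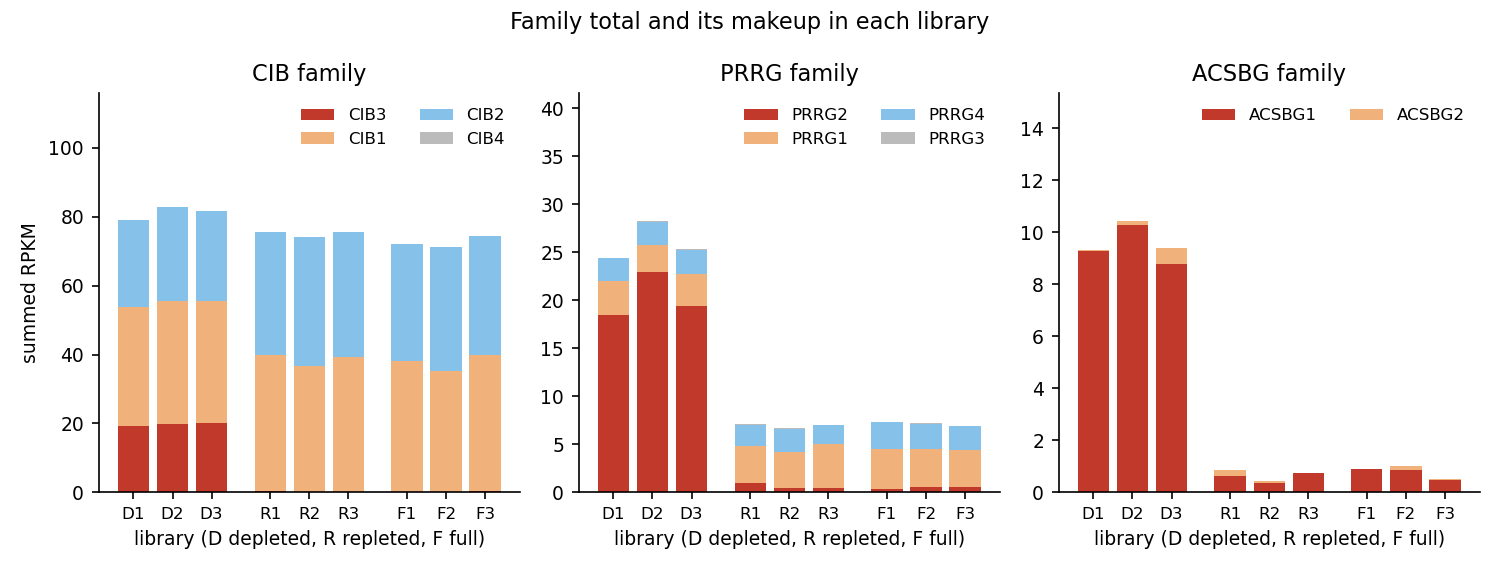
Summed RPKM of the CIB, PRRG and ACSBG families in each library, split by member, with depleted libraries left of repleted and full ones. The PRRG sum reaches 24.4 to 28.3 RPKM in depleted libraries, mostly PRRG2, while the CIB sum keeps CIB1 and CIB2 as its largest parts in every library.

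The family controls are given here as a group. The 4 that were tested were above 1 RPKM in repleted and full medium, so they could not show a rise from near 0. Of 5, 4 were tested; against full medium 0 rose and 1 fell, and against repleted medium 0 rose and 2 fell (limma adjusted p under 0.05). Over all genes tested, 60.9% were called against full medium and 60.7% against repleted medium, beside 1 of 4 and 2 of 4 controls. At an unadjusted p under 0.05, 0 controls rose and 2 fell against full medium, and 0 rose and 3 fell against repleted medium. In repleted against full medium, 0 of the 4 were called, also at an unadjusted p under 0.05, beside 0.0317% of all genes tested. Depleted libraries lay wholly apart for 2 of the 4 controls against full and for 3 of 4 against repleted medium, where that held for 67.6% and 65.2% of all genes tested. CIB3, PRRG2 and ACSBG1 differed between repleted and full medium by log2 values of 0.16, 0.10 and -0.16, with overlapping libraries.

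CIB3, PRRG2 and ACSBG1 belonged to a small class. Of 42334 genes that averaged under 1 RPKM in both repleted and full medium, 649 (1.53%) averaged at least 1 RPKM and 19 (0.0449%) at least 5 RPKM in depleted medium. In the other direction, 15 of 10244 genes with at least 5 RPKM in repleted and full medium fell under 1 RPKM in depleted medium. Of 23692 genes listed at 0 in all 6 repleted and full libraries, 32 averaged at least 1 RPKM in depleted medium. Among the 19, 12 were protein-coding, and 3 had an effective length under 100 nucleotides, where few reads give a high RPKM. Each of these classes was defined by the values it is described with, and none was tested.

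By their depleted mean, PRRG2 ranked first, CIB3 second and ACSBG1 sixth of the 19. The others of the highest 10 were SNORA66, RP11-805L22.3, C5orf27, RP11-70C1.1, GALR2, MIR5587 and SNORD82. GALR2, a receptor for the neuropeptide galanin, had 9.16, 8.42 and 8.03 RPKM in the depleted libraries and averaged 0.540 RPKM in repleted and 0.813 in full medium. The lincRNA RP11-805L22.3 averaged 10.2 RPKM in depleted, 0.707 in repleted and 0.227 in full medium. SNORA66, MIR5587 and SNORD82 are short RNAs; SNORA66 had 0, 11.49 and 39.73 RPKM and MIR5587 0, 22.97 and 0 RPKM in the depleted libraries. CIB3, PRRG2 and ACSBG1 were more even across the depleted libraries than SNORA66 and MIR5587, but this was not particular to them. Their SDs in depleted medium were 0.393, 2.33 and 0.756 RPKM. The longer genes among the others of the highest 10 had SDs of 0.574 (GALR2), 0.984 (RP11-70C1.1), 1.11 (RP11-805L22.3) and 1.16 RPKM (C5orf27). The SD of PRRG2 was thus larger than these, and that of CIB3 smaller. These SDs are not scaled to the level, so they do not rank how even the genes were. PRRG2 and CIB3 averaged 20.3 and 19.7 RPKM in depleted medium, against 8.54 (GALR2) to 10.2 RPKM (RP11-805L22.3) for the longer genes.

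The limit of 1 RPKM divides close values. Just inside it, C5orf27 averaged 9.85 RPKM in depleted, 0.843 in repleted and 0.860 in full medium. Just outside it, TPH2, an enzyme of serotonin synthesis, averaged 6.65 RPKM in depleted, 1.13 in repleted and 0.703 in full medium, and WEE2-AS1 averaged 5.26, 1.00 and 1.01 RPKM in the same media. ACSBG1, at 0.740 RPKM in full medium, is the nearest of the 3 genes to the limit. Limits of 0.8 and 1.2 RPKM, added after the values were seen, gave 15 and 27 genes in place of 19, and leaving out each library in turn gave 19 to 23.

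**Figure D4:**
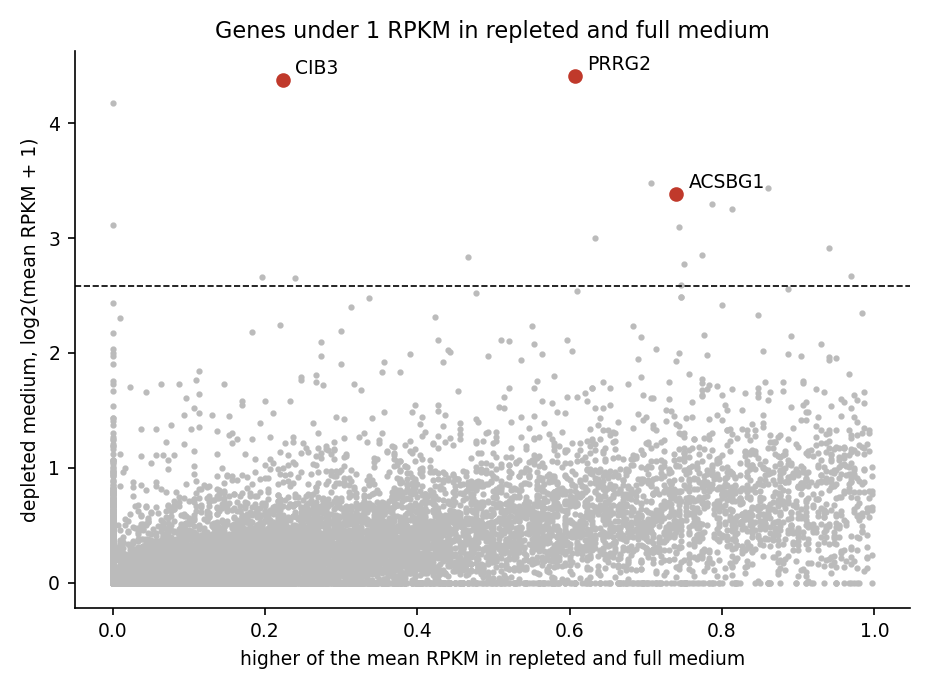
Each gene under 1 RPKM in repleted and full medium, with log2(mean RPKM + 1) in depleted medium on the vertical axis and the higher of its repleted and full mean RPKM on the horizontal axis; the dashed line is at 5 RPKM in depleted medium. PRRG2 and CIB3 stand highest, at 20.3 and 19.7 RPKM, and ACSBG1 lies at 9.44 RPKM.

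The genes beside CIB3, PRRG2 and ACSBG1 are given as a description. Their log2 changes were smaller, but the 3 genes were chosen for a rise from near 0, so this contrast was not tested. In RPKM, TPM4 rose by more than CIB3. The 3 nearest genes on each side that the table lists, 18 in all, were taken from RefSeq, and 14 were tested. Against full medium 6 rose and 2 fell, with log2 changes from -0.40 to 0.50, and against repleted medium 6 rose and 1 fell, from -0.46 to 0.71. Among the calls against full medium, that of FAM32A (0.12) was lost without depleted replicate 2 and that of SCAF1 (-0.17) without depleted replicate 1 or full replicate 3, with limma adjusted p of 0.05, 0.0624 and 0.0677. Against repleted medium NOSIP (0.13) was lost without depleted replicate 2 (0.0506) or 3 (0.0616) or repleted replicate 3 (0.0727), and FAM32A (0.11) without depleted replicate 2 (0.0735). Over all 15 alternatives followed per gene, FAM32A was lost in 2 and SCAF1 in 3 against full medium (limma adjusted p up to 0.0707 and 0.0828). Against repleted medium NOSIP was lost in 4 and FAM32A in 2 (up to 0.0889 and 0.105). The counts of neighbours called stand beside 29.8% of all genes called higher and 31.2% called lower against full medium, and 29.5% and 31.2% against repleted medium. Beside CIB3, TPM4, a tropomyosin, averaged 175 RPKM in depleted, 113 in repleted and 126 in full medium (log2 change against full 0.47, SE 0.05, limma adjusted p = 4.49e-05). HSH2D, the next gene on the other side of CIB3 from FAM32A, averaged 0.0967 RPKM in depleted, 0.163 in repleted and 0.150 in full medium and was not tested. Beside PRRG2, FCGRT, the neonatal Fc receptor, had a log2 change of 0.50 against full and 0.71 against repleted medium.

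ACSBG1 and CIB2 lie in the same stretch of chromosome 15, with IDH3A, a subunit of a mitochondrial isocitrate dehydrogenase, between them. ACSBG1 and IDH3A were higher in depleted medium, whereas CIB2 was lower. IDH3A had 100.18, 96.88 and 107.02 RPKM in the depleted libraries, against 78.00, 79.70 and 77.54 in the repleted and 77.19, 74.99 and 72.50 in the full libraries. The depleted libraries of IDH3A were above all others, with a log2 change of 0.37 against repleted (SE 0.04, limma adjusted p = 5.55e-05) and 0.43 against full medium (SE 0.04, limma adjusted p = 1.83e-05). On the other side of ACSBG1, DNAJA4, a chaperone of the DnaJ family, averaged 0.460 RPKM in depleted, 0.250 in repleted and 0.320 in full medium, with overlapping libraries.

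In the GENCODE annotation, ACSBG1 and CIB2 overlap IDH3A on the opposite strand, and PRRG2 overlaps NOSIP on the opposite strand, while CIB3 overlaps no gene. In RefSeq, the source of the neighbours, ACSBG1 also overlaps IDH3A, but PRRG2 does not overlap NOSIP. Whether the counting used strand is not given in the sources used here, so reads in these overlaps cannot be told apart. NOSIP, which binds nitric oxide synthase, averaged 82.5 ± 0.721 RPKM in depleted, 75.1 ± 3.46 in repleted and 68.5 ± 2.73 in full medium (SD, n = 3 each). Its log2 change was 0.27 against full medium (SE 0.04, limma adjusted p = 0.000496). On that scale the same rise in RPKM is smaller for a gene of high level, so the value cannot be set against that of PRRG2. The part of reads from NOSIP or IDH3A in the levels of PRRG2 and ACSBG1 was not tested.

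**Figure D5:**
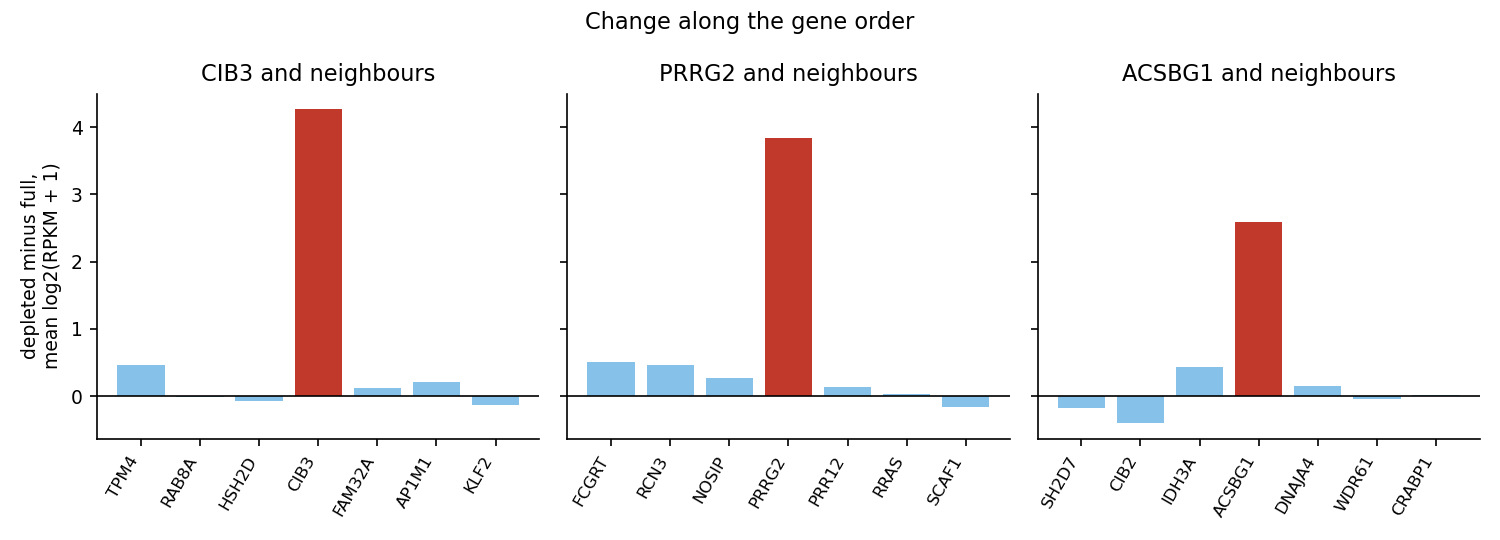
Log2 difference of depleted minus full medium, on the vertical axis, for CIB3, PRRG2 and ACSBG1 and the 3 nearest listed genes on each side, in their order along the chromosome. The neighbours lie between -0.40 and 0.50, whereas the 3 genes lie at 4.27, 3.83 and 2.59.

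Among 15 genes whose products bind CIB proteins, 11 were tested; 1 rose and 5 fell against full medium, and 1 rose and 7 fell against repleted medium. Of all genes tested, 60.9% were called against full medium (29.8% higher, 31.2% lower) and 60.7% against repleted medium (29.5% higher, 31.2% lower), so the share of partners called against full medium was near that of all genes. The median log2 change was -0.20 against full medium, where all genes tested had 8e-04, and -0.30 against repleted medium, where they had -0.01. SPHK1, a sphingosine kinase that CIB1 brings to the membrane, averaged 0.933 ± 0.229 RPKM in depleted, 3.44 ± 0.302 in repleted and 3.88 ± 0.341 in full medium, a log2 change of -1.34 against full medium (SE 0.12, limma adjusted p = 1.06e-05). PAK1, a kinase that CIB1 activates, fell by 0.59 on the log2 scale against full medium (limma adjusted p = 1.16e-05), to 16.6 ± 0.471 RPKM in depleted, against 25.6 ± 1.59 in full medium. DFNB31 (whirlin), a scaffold of hair cell stereocilia that binds CIB2, averaged 4.27 ± 0.190 RPKM in depleted, 7.77 ± 0.741 in repleted and 6.49 ± 0.652 in full medium (limma adjusted p = 0.00117 against full medium). PSEN2, a presenilin, fell by 0.23 on the log2 scale against full medium (limma adjusted p = 0.00686). The count of falls against repleted medium was 4 without depleted replicate 2, repleted replicate 1 or repleted replicate 2.

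In the vitamin K cycle and among the other Gla proteins, 6 of 14 genes were tested; 2 rose and 4 fell against full medium, and 1 rose and 3 fell against repleted medium. Over all genes 60.9% were called against full and 60.7% against repleted medium, and 4 of 6 called against repleted medium is near that share. The median log2 change was -0.24 against full medium and -0.20 against repleted medium. VKORC1, the reductase that regenerates vitamin K, averaged 24.6 ± 1.35 RPKM in depleted, 63.3 ± 2.78 in repleted and 63.4 ± 3.34 in full medium, a log2 change of -1.33 against both (SE 0.06, limma adjusted p = 8.08e-08 against repleted and 8.25e-08 against full medium). GGCX, the carboxylase that modifies Gla domains, fell by 0.33 on the log2 scale against full medium, to 22.0 ± 1.69 RPKM in depleted, against 27.8 ± 0.817 in full medium (limma adjusted p = 0.00215). GAS6, a secreted Gla ligand of receptor kinases, fell by 1.15 against full medium (limma adjusted p = 6.52e-06), to 2.82 ± 0.193 RPKM, against 7.47 ± 0.351. VKORC1L1, a second vitamin K reductase, rose by 0.26 against full medium (limma adjusted p = 0.009). PRRG2 was thus high in the same libraries in which GGCX and VKORC1 were lower, and VKORC1L1 higher, than in full medium. PRRG2 was chosen for its level in these libraries, and a relation to the vitamin K genes was not tested. The count of rises against full medium was 1 without depleted replicate 1 or 2 or full replicate 2 or 3, and that against repleted medium was 2 without full replicate 2.

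The WW-domain proteins, some of which bind PRRG tails, went both ways. All 9 were tested; 2 rose and 2 fell against full medium, and 3 rose and 2 fell against repleted medium, with medians of 0.06 and 0.12. These 4 and 5 calls among 9 genes did not exceed the 60.9% and 60.7% of all genes called. WWP2, a ubiquitin ligase, averaged 17.5 ± 0.740 RPKM in depleted, 9.39 ± 0.340 in repleted and 9.69 ± 0.375 in full medium, a log2 change of 0.80 against full medium (SE 0.06, limma adjusted p = 2.71e-06). NEDD4, a related ligase, fell by 0.67 (limma adjusted p = 0.00287) and MAGI1, a scaffold of cell junctions, fell by 0.69 (limma adjusted p = 0.00026) on the log2 scale against full medium. WWTR1, a partner of TEAD factors, rose by 0.24 (limma adjusted p = 0.0197), a call lost without depleted replicate 1 (0.0719), depleted replicate 2 (0.0575) or full replicate 3 (0.0726). The count of rises was then 1, and against repleted medium it was also 1 without depleted replicate 1 or 2, repleted replicate 1 or 2, or full replicate 1.

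Of 11 other synthetases that act on long fatty acids, 10 were tested; 1 rose and 7 fell against full medium, and 7 fell against repleted medium (limma). Of all genes tested, 31.2% were called lower in each of these comparisons, and 60.9% and 60.7% in either direction. The median log2 change was -0.57 against full and -0.47 against repleted medium. SLC27A4, a fatty acid transport protein with synthetase activity, averaged 13.4 ± 0.690 RPKM in depleted, 31.0 ± 2.18 in repleted and 31.0 ± 0.999 in full medium, a log2 change of -1.15 against full medium (SE 0.06, limma adjusted p = 3.34e-07). ACSL4, which prefers arachidonate, fell by 0.79 on the log2 scale against full medium (limma adjusted p = 2.82e-06), to 26.4 ± 2.21 RPKM in depleted, against 46.1 ± 0.494 in full medium. ACSL1 fell by 0.63 (limma adjusted p = 6.17e-06) and SLC27A5, a bile acid-CoA ligase, by 1.44 (limma adjusted p = 1.95e-05) on the same scale. Depleted levels of SLC27A4, ACSL4 and ACSL1 (9.79 RPKM) were above or overlapped that of ACSBG1. ACSL3, the gene that rose against full medium, was named after its values were seen (log2 change 0.18, limma adjusted p = 0.014), and the count of rises was 0 without depleted replicate 2 or full replicate 1. Against repleted medium 0 rose by limma, but 1 without depleted replicate 2, 1 without repleted replicate 1, 1 after quantile normalization, which left 4 falls, and 2 after median centring.

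Genes that lengthen very long fatty acids or break them down in peroxisomes went both ways. Of 18 in the table, 16 were tested, and 8 rose and 4 fell in each comparison of the depleted group, with medians of 0.07 against full and 0.10 against repleted medium. Over all genes, 29.8% were called higher and 31.2% lower against full medium, and 29.5% and 31.2% against repleted medium, so the 4 falls among 16 genes were no more than that share. ELOVL5, which elongates polyunsaturated fatty acids, averaged 94.8 ± 0.668 RPKM in depleted, 60.5 ± 1.62 in repleted and 61.1 ± 1.08 in full medium (log2 change against full 0.62, limma adjusted p = 2.9e-07). PTPLAD1, a dehydratase of the elongation cycle, rose by 0.57 (limma adjusted p = 1.32e-06). ELOVL2, another elongase, fell by 0.80 (limma adjusted p = 1.52e-06), and HSD17B4, a peroxisomal enzyme of beta-oxidation, fell by 1.18 against full medium on the log2 scale (limma adjusted p = 4.27e-06).

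Defining markers of most cell types in which these families are known were near 0. The 5 hair cell, 4 steroidogenic, 4 spermatid and 4 hepatocyte markers all failed the filter. Their summed levels in depleted, repleted and full libraries were 0.59 to 0.85, 0.68 to 0.93 and 0.86 to 1.29 RPKM for hair cells, and 0.22 to 0.42, 0.12 to 0.15 and 0.06 to 0.12 RPKM for steroidogenic cells. For spermatids they were 0.07 to 0.58, 0.22 to 0.49 and 0.31 to 0.52 RPKM, and TNP1 was at 0 in every library. For hepatocytes, which make the clotting Gla proteins, they were 0.19 to 0.40, 0.12 to 0.61 and 0.11 to 0.34 RPKM. Of 5 astrocyte markers, 3 passed the filter, and the sum was 15.6 to 18.0 RPKM in depleted, 30.7 to 32.7 in repleted and 32.9 to 34.1 in full libraries, mostly from GJA1, a gap junction protein of many cell types; the part of these markers in the levels of ACSBG1 was not tested. In each comparison of the depleted group 1 of the 3 rose and 1 fell. GFAP was not called (limma adjusted p = 0.427 against repleted and 0.187 against full medium), except against full medium without depleted replicate 2 (0.0416). AQP4, which failed the filter, averaged 0.26 RPKM in depleted, 0.643 in repleted and 0.763 in full medium. SLC1A2, which also failed it, averaged 0.06, 0.24 and 0.173 RPKM in the same media. Of the 5 markers, only ALDH1L1 averaged higher in depleted medium. GJA1 fell by 1.11 on the log2 scale against full medium (limma adjusted p = 1.82e-06). ALDH1L1, a folate enzyme of astrocytes, rose, with 1.88, 1.72 and 1.56 RPKM in the depleted libraries, against 0.60, 0.84 and 0.32 in the repleted and 0.70, 1.27 and 0.81 in the full libraries. Its log2 change was 0.79 against repleted (SE 0.17, limma adjusted p = 0.00297) and 0.51 against full medium (SE 0.17, limma adjusted p = 0.0277). The call against full medium was lost without depleted replicate 1 (0.0824) or 2 (0.0663) or full replicate 1 (0.0922) or 3 (0.0766), with no filter (0.0731) and with a pseudocount of 0.1 (0.0615). All 6 HEK293 markers passed, with sums of 812 to 833 RPKM in depleted, 807 to 829 in repleted and 823 to 836 in full libraries. VIM (vimentin) made up most of each sum and rose, at 665 ± 11.3 RPKM in depleted, 585 ± 4.67 in repleted and 577 ± 6.12 in full medium (log2 change against full 0.21, limma adjusted p = 2.66e-05); it was named after its values were seen. Of the 6 markers, 1 rose and 4 fell against full medium, and 1 rose and 5 fell against repleted medium. NEFL, a neurofilament, averaged 6.53 RPKM in depleted, 31.9 in repleted and 31.8 in full medium. PAX2, a kidney transcription factor, averaged 0.600, 3.02 and 3.29 RPKM in the same media, and the keratins KRT8 and KRT18 averaged 90.4 and 59.2 RPKM in depleted, 124 and 70.2 in repleted and 135 and 77.4 in full medium.

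Over the 9 libraries, CIB3 and PRRG2 had a Pearson r of 0.9977 on the log2 scale, CIB3 and ACSBG1 0.9866, and PRRG2 and ACSBG1 0.9889. The libraries share their groups, and a gene with 2 levels set by medium gives a high r whatever its size of change. Of 15773 other genes tested, 213 had an r over 0.99 with CIB3, 225 with PRRG2 and 157 with ACSBG1. The most alike were APOA1BP (0.9992), SPNS1 (0.9992) and CHAC1 (0.9986) for CIB3. For PRRG2 they were PRPF6 (0.9992), RP11-10O17.1 (0.9991) and TMEM147 (0.999), and for ACSBG1 they were CAMLG (0.9984), PRRC1 (0.9983) and MRE11A (0.9983). CHAC1, which degrades glutathione, had 30.5, 29.9 and 30.31 RPKM in the depleted libraries, against 2.72, 2.09 and 2.69 in the repleted and 2.28, 2.27 and 2.58 in the full libraries, so it was already expressed where zinc was present, unlike CIB3.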

How the data were processed

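Polyadenylated RNA of 9 libraries, 3 per medium, was analysed from a single table of 57766 genes, after 20320 blank rows were left out. The authors deposited each value as log2 of RPKM, per the file headers, which do not name the added 1. It was read from the values. Their lowest was 0, and with 1 subtracted after undoing the log2, 100% were multiples of 0.01 RPKM. RSEM 1.2.6, Bowtie 1.0.1, BWA 0.7.12-r1039, bedtools 2.25.0.3 and the builds hg19 and GRCh37 are listed in the submitters' processing notes with no role or order. Whether values were scaled further or counted by strand is not given in the sources used here.

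The values were fitted with limma 3.58.1 in R 4.3.3, with a variance trend, 1 mean per group over all 9 libraries, a pseudocount of 1, a filter of at least 1 RPKM in at least 3 libraries, and Benjamini-Hochberg adjustment over 15774 genes at a threshold of 0.05. The model was tested on simulated data. ACSBG2, outside the filter, had exact two-sided permutation tests. The labels state biological triplicates but not how the cultures were kept apart, so p-values measure the spread between these libraries.

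The genes, lists and tests were chosen with earlier results of these data known. The genes named are the 8, the rest of their families, MT2A, up to 4 genes per list with the smallest p against full medium, the 3 nearest genes on each side, the 10 highest near-silent genes in depleted medium and the 3 most alike by Pearson r. Promoter windows come from RefSeq on GRCh38.p14 and overlaps from GENCODE. Proteins were not used here. Alternatives were a pseudocount of 0.1, no filter, 6 libraries, a replicate block, median centring, quantile normalization, a threshold of 0.01 and each library left out. Python 3.11.15 and matplotlib 3.10.9 made the figures.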

Additional observations from a re-analysis of the deposited data

How the results depend on the processing

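The counts of genes called in depleted against full medium (9611) and against repleted medium (9574) stayed within 1.5 times under every alternative run. In repleted against full medium 5 genes were called, against 3 with a pseudocount of 0.1, 2 with no filter, 2 with the 6 libraries compared alone, 2 with the replicate block, 1 at a threshold of 0.01 and 1 to 9 with each library left out; the cause was not tested. Of the named genes followed through the alternatives, which leave out MT2A and ACSL3, none reversed its direction where it was called. A pseudocount of 0.1 raised the log2 difference of depleted from full medium to 7.03 for CIB3, 5.13 for PRRG2 and 3.55 for ACSBG1, because these genes are near 0 in zinc. Libraries with the same replicate number had residual correlations of -0.0144 to 0.0726, the last being the highest of all pairs between groups. Of the libraries, 0 of 9 correlated best with their own number in every other group. These values show no clear pairing by number, but cannot tell whether cultures of the same number were handled together. The replicate block called 9511 and 9472 genes in the depleted comparisons. PSEN2 against repleted medium passed in the main model (limma adjusted p = 0.038), with a range of 0.0189 to 0.139 under the alternatives. NOSIP against repleted medium (0.0215) had a range of 0.00447 to 0.0889. Levels near 0 rest on few reads: a CIB3 level of 0.25 RPKM is an estimated 2.3 reads.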
